A study of Mus musculus with 12 samples.

Results

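Ribosome occupancy relative to transcript level was measured per gene in mammary glands that had received vehicle only. The comparison used 6 of the 12 libraries of the series: 3 RNA libraries and 3 ribosome footprint libraries, matched by their labelled replicate number into 3 pairs. All came from 4-week-old female FVB/N mice that carried MMTV-Wnt1 / MMTV-iFgfr1 and were taken 6 h after an intraperitoneal injection of vehicle. Both transgenes are driven by MMTV, a viral promoter active mainly in mammary epithelium, so there was no gland without them. The third to the fifth mammary glands were digested with collagenase in the presence of cycloheximide, which stalls elongating ribosomes. Short centrifugation steps enriched the epithelium, and the labels give no sort. A cell pellet supplied both poly(A)-selected RNA and nuclease-protected fragments. Whether each library stems from a single mouse or several pooled ones is not stated, so p-values measure only how far these samples spread, and that spread may be technical.

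Ribosome profiling counts the short RNA pieces that a translating ribosome shields from nuclease. The number of such footprints on a transcript depends on how many copies of the transcript there are, how often ribosomes start on it and how long each ribosome stays. Dividing footprints by RNA removes the first of these, and the ratio is often called translational efficiency. Transcripts of ribosomal proteins and elongation factors are textbook cases of growth-regulated translation, and replication-dependent histone transcripts end in a stem-loop in place of a poly(A) tail.

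Levels are given as CPM, counts scaled by TMM to a common library size, and the ratio as log2 of footprint CPM over RNA CPM. A ratio of 0 means that a gene took the same share of both kinds of library. CPM is not divided by gene length, so levels of different genes are not compared, but the length cancels in the ratio of 1 gene where both assays count the same region. No source used here gives the counted region. Poly(A) RNA and nuclease fragments are also separate preparations, so occupancy and differences in capture or mapping cannot be told apart in a single ratio. In these unsorted cells, fewer cells of a type and less RNA per cell cannot be told apart either.

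The RNA libraries held 99484140 to 251874393 counts over the listed genes and the footprint libraries 1772969 to 4007613. A floor of 3 counts corresponded to 0.0118 to 0.0303 CPM in RNA and to 0.799 to 1.67 CPM in footprints, which covers counting error only. Between libraries of the same assay, Pearson's r of log2 CPM across genes was 0.973 to 0.987 in RNA and 0.861 to 0.903 in footprints, against 0.477 to 0.551 between the RNA and the footprints of a number. All 9 basal markers and 7 of the 13 luminal markers were listed. Fibroblast markers, 6 of 8 listed, summed to 3519 to 6189 CPM in RNA and to 11831, 14609 and 31947 CPM in the 3 footprint libraries, so the third footprint library was the highest in stromal transcripts. Of 5 macrophage markers and 5 lymphocyte markers 1 each was listed, and no erythroid marker.

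Footprints and RNA diverged widely between genes. Of 7318 listed genes, 6836 had a mean of at least 10 CPM over both assays and entered the edgeR quasi-likelihood fit. The ratio was higher than 0 in 1659 genes (24.3% of those tested) and lower in 1904 (27.9%) at an adjusted p of 0.05. Its median was -0.06, its quartiles were -0.85 and 0.68, and the span from the 5th to the 95th percentile was 18.4-fold. Of these, 241 had a footprint mean under 10 CPM and 192 an RNA mean under 10 CPM, so they were tested only because the other assay was higher.

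The genes that held most footprints were immediate early factors, cytoskeletal actin and collagen. Fos, a subunit of the AP-1 transcription factor, stood at 12557, 9333 and 14852 CPM in RNA and at 34621, 30605 and 38808 CPM in footprints. Every footprint value lay above every RNA value, and the log2 ratio was 1.52 ± 0.16 (SE, n = 3 pairs, adjusted p = 5.47e-05). The AP-1 partners Jun and Junb had ratios of 1.86 ± 0.19 and 1.95 ± 0.18. Actb, cytoplasmic beta-actin, had a ratio of 1.96 ± 0.18 with 49.2% shared windows. Of the 5 immediate early genes tested, 4 were higher and 1 was lower, and together they took 7.47% to 8.27% of footprint counts against 2.28% to 3.05% of RNA counts. The exception was Klf4, a zinc finger factor, with 1442, 836 and 1147 CPM in RNA and 582, 557 and 463 CPM in footprints (log2 ratio -1.07 ± 0.23, adjusted p = 0.00305).

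**Figure D1:**
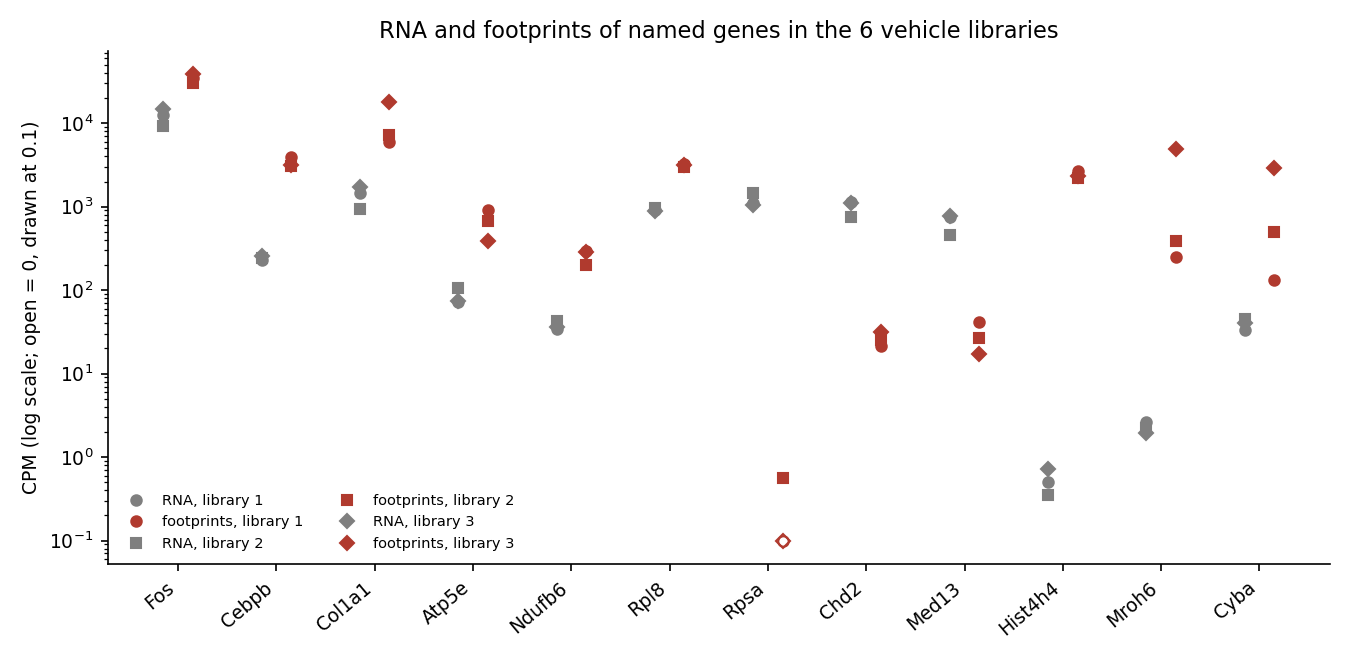
CPM on a log axis in each of the 3 RNA (grey) and 3 footprint (red) libraries for genes named in the text, with a symbol per library number and open symbols at 0.1 for a value of 0. Footprints of Fos and Col1a1 lie above their RNA in all libraries, those of Chd2, Med13 and Rpsa lie below, and Mroh6 and Cyba are highest in footprint library 3.

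Replication-dependent histones, the core and linker histones made in S phase, had the highest ratios in the table. All 55 listed were tested and all 55 were called higher, with log2 ratios of 1.79 to 12.78. This count supports nothing on its own, because 48 of them had an RNA mean under 20 CPM, the level at which RNA alone passes the filter, and were tested only because their footprints were high. As a group they took 7.38%, 5.25% and 3.29% of the counts in footprint libraries 1, 2 and 3, against 0.0914%, 0.106% and 0.0608% in the RNA libraries. Their summed footprint level was 76818, 51709 and 35086 CPM, highest in library 1, and H3 genes varied most, at 14783, 9310 and 3180 CPM. Luminal markers summed to 13465, 9163 and 6716 CPM in the same footprint libraries and to 5506, 7150 and 3773 CPM in RNA, and their part in the histone totals was not tested.

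The stem-loop at the 3' end of such transcripts was found by a search of the 3' UTR sequence with the histone stem-loop consensus, on the transcript strand. It was present in 38 of 54 matched histone transcripts (70.4%) and in 4 of 7235 other coding transcripts (0.0553%). In 13 of the histone transcripts the annotated 3' UTR is shorter than the 16 bases of the element, so the search could not find it, and 38 of the 41 longer ones (92.7%) held it. These 6 examples show how the element differs between family members and in H2afx, a variant histone gene that also carries it. The 16 bases of the consensus are in capitals, with 5 bases on each side, in transcript direction from GENCODE vM21 on GRCm38.
Hist4h4: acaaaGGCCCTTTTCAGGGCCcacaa
Hist1h4d: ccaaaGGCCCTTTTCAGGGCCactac
Hist1h3e: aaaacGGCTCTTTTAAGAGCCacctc
Hist1h2ab: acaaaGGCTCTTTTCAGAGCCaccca
Hist1h1c: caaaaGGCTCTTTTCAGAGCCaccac
H2afx: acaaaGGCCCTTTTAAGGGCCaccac

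These stretches lie in the 3' UTR of Hist4h4 at chr6:136803993-136804018 (minus strand), of Hist1h4d at chr13:23581945-23581970 (plus), of Hist1h3e at chr13:23561898-23561923 (minus), of Hist1h2ab at chr13:23751567-23751592 (plus), of Hist1h1c at chr13:23739507-23739532 (plus) and of H2afx at chr9:44335235-44335260 (plus). The other 3 matches outside the replication-dependent class were Clec2d, Lyst and Syncrip. A match is a description of the sequence, and its part in the ratios was not tested.

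Hist4h4, which encodes histone H4, had 0.499, 0.347 and 0.727 CPM in RNA and 2673, 2209.6 and 2348 CPM in footprints. RNA was under 1 CPM in each library, the assays did not overlap, and the log2 ratio was 12.22 ± 0.37 (edgeR adjusted p = 1.47e-08). Only 2.46% of its coding windows of 28 bases occur in another annotated gene. The H4 gene Hist1h4f had the highest ratio, 12.78 ± 0.40, with 0.169, 0.281 and 0.151 CPM in RNA and 1859, 1371 and 955 CPM in footprints. Hist1h4d held the most footprints of the class, 5025, 4315 and 3533 CPM.

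The 7 members with an RNA mean of at least 20 CPM did not depend on footprints to be tested, and their ratios ran from 1.79 to 6.45. Hist1h1a, a linker histone with 0.813% shared windows, had 36.7, 20.8 and 23.8 CPM in RNA and 3111, 2034 and 1414 CPM in footprints (log2 ratio 6.30 ± 0.27). Hist1h1c, another linker histone, had the highest RNA of the class, 488, 592 and 337 CPM, and 2522, 1818 and 3004 CPM in footprints (2.38 ± 0.29). In both genes the assays did not overlap. The lowest ratio was that of Hist1h2bc, an H2B gene, at 122, 119 and 80.3 CPM in RNA and 545, 201 and 424 CPM in footprints (1.79 ± 0.31, adjusted p = 0.00103). Individual histones outside the highest 10 were picked after their values were seen.

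By family, the median ratio was 6.30 in 5 linker H1 genes, 9.40 in 13 H2A genes, 7.25 in 15 H2B genes, 10.16 in 10 H3 genes and 10.27 in 12 H4 genes. The 13 histone genes with an annotated 3' UTR of at least 500 bases had a median of 6.84, and the 32 with under 100 bases one of 9.54. Across 54 histone genes, which share the same 6 libraries, Spearman's rho of the ratio was -0.18 with 3' UTR length and -0.03 with the share of shared windows.

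Replication-independent variants, whose transcripts are mostly polyadenylated, were mixed: 6 of 9 tested were higher and 3 lower. H2afx, which marks DNA breaks when phosphorylated, had 54.2, 59.5 and 36.4 CPM in RNA and 1016, 933 and 529.9 CPM in footprints (4.02 ± 0.23). H2afv, an H2A.Z gene with 0% shared windows, had a ratio of 1.83 ± 0.21. H2afz, the other H2A.Z gene, with 100% shared windows, had a ratio of -6.11 ± 0.45. Its footprints were 0, 3.89 and 3.46 CPM against 159.5, 225 and 157 CPM in RNA.

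**Figure D2:**
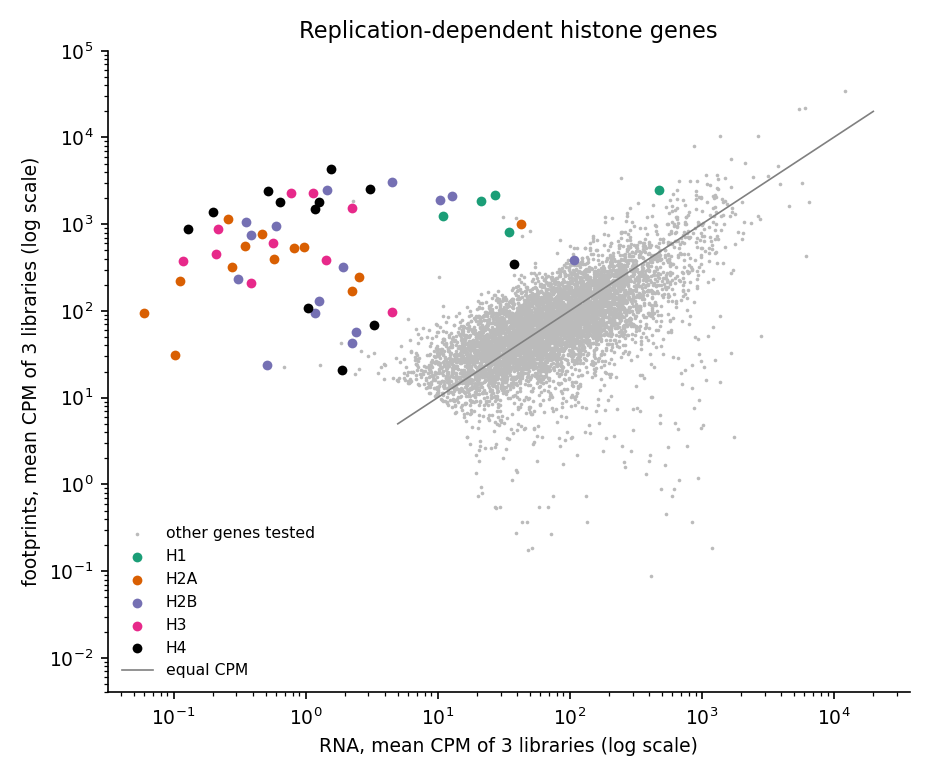
Mean footprint CPM against mean RNA CPM of 3 libraries each, on log axes, with replication-dependent histone genes coloured by family, the other tested genes in grey and a line at equal CPM. All 55 coloured points lie above the line, most of them at RNA levels under 10 CPM.

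Ribosomal proteins of the cytosolic ribosome lay at the other end. Of 74 tested, 65 were lower, 4 higher and 5 passed in neither direction, with a median log2 ratio of -5.41. They took 4.55% to 6.28% of RNA counts and 1.42% to 1.58% of footprint counts. In 30 of them the footprint mean was under 10 CPM, so these were tested through their RNA. In 1 of the higher members, Rpl30, the RNA mean was under 10 CPM, so it was tested through its footprints. The count is therefore given as a description. Most have near-identical processed pseudogenes: the median member shared 97.4% of its 28-base coding windows with another annotated gene. A read that does not extend past such a window cannot be placed by its sequence, whereas a longer read may be. No source used here says what the authors did with reads that match several genes, and the part of mapping in these ratios was not tested.

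The ratio of a ribosomal protein followed that share, with a Spearman's rho of -0.79 across the 74 genes. The 32 members whose windows were all shared had a median of -7.14 and all 32 were lower. Medians were -5.36 in 13 members with 95.3% to 99.8% shared windows, -2.32 in 15 members with 80.2% to 94.8% and -1.21 in 10 members with 58.2% to 79.0%. In the 4 members with under 50% the median was 0.95.

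The first 28 coding bases of 2 abundant, fully or almost fully shared genes and of 1 little-shared ribosomal protein gene illustrate the contrast, with the start codon in capitals (GENCODE vM21, GRCm38).
Rpsa: ATGtccggagcccttgacgtcctgcaga
Ppia: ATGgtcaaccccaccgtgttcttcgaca
Rpl8: ATGggccgtgtgatccgagggcagagga

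The window of Rpsa (chr9:120128490-120128517, plus strand) occurs in 3 other annotated genes and that of Ppia (chr11:6415911-6415938, plus) in 7. That of Rpl8 (chr15:76904313-76904340, plus) occurs in 0. All 3 lie in coding exons.

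Rpl8, a large-subunit protein with 11.4% shared windows, had 908, 966 and 879 CPM in RNA and 3273, 2987 and 3177 CPM in footprints. All footprint values exceeded all RNA values, and the log2 ratio was 1.78 ± 0.20 (adjusted p = 7.46e-05). Rps3, with 22.6% shared windows, had a ratio of 0.92 ± 0.21, whereas Rpl4, with 43.4%, had one of -1.36 ± 0.20. These genes were named after their values were seen.

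Rpsa, a small-subunit protein and laminin receptor with 100% shared windows, had 1092, 1478 and 1048 CPM in RNA but 0, 0.556 and 0 CPM in footprints. That is 1 footprint count in all, and RNA was 8744-fold above footprints with an exact 95% Poisson interval of 1569 to 345385, which covers counting error only. Rpl27a, also 100% shared, had 313, 409 and 279 CPM in RNA and 0 footprint counts, which puts its footprints at least 817-fold lower against a floor of 3 counts over the group. Exceptions ran the other way. Rps20 had 96.4% shared windows and a ratio of 0.53 ± 0.24 (adjusted p = 0.0882). Rpl30, at 0.687 CPM in RNA and 22.8 CPM in footprints with 91.3% shared windows, had one of 4.95 ± 0.62. Rpl30 was tested only because its footprints were high, so its ratio supports nothing on its own.

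**Figure D3:**
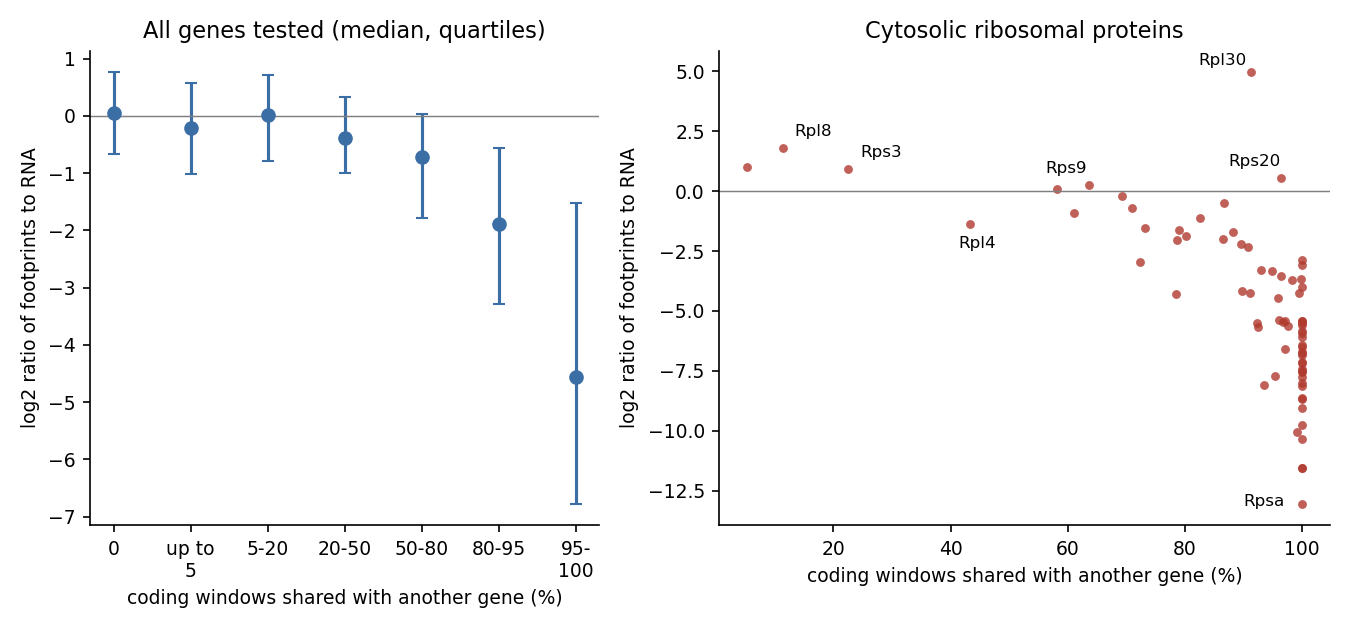
Log2 footprint to RNA ratio against the percent of 28-base coding windows found in another annotated gene, as median and quartiles over all tested genes by bin and as points for 73 of 74 ribosomal proteins (Rpl27a, with 0 footprints, is not drawn). Medians over all genes lie between 0.06 and -0.38 up to 50% and reach -4.57 in the last bin, and ratios of ribosomal proteins are lower toward the right.

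Over all tested genes the relation was weaker, with a Spearman's rho of -0.19 across 6810 genes, and low medians were found where most windows were shared. The median ratio was 0.06 in 4634 genes with no shared window, -0.20, 0.01 and -0.38 in the bins up to 5%, 20% and 50%, -0.72 and -1.89 in those up to 80% and 95%, and -4.57 in 124 genes with over 95%. Without ribosomal proteins and replication-dependent histones the last bin had 72 genes and a median of -2.94. Eef1a1, which carries aminoacyl-tRNA to the ribosome and had 89.4% shared windows, stood at 6428, 6850.0 and 5397 CPM in RNA and 492, 374 and 423 CPM in footprints (log2 ratio -3.86 ± 0.22). Ppia, a prolyl isomerase with 99.4%, had a ratio of -9.61 ± 0.64. Gapdh, the glycolytic dehydrogenase, and Eif4a1, the cap-complex helicase, had ratios of -6.97 ± 0.55 and -9.33 ± 0.68. The histocompatibility gene H2-D1, at 557 ± 82.8 CPM in RNA and 2.68 ± 1.83 CPM in footprints (SD, n = 3), had 45.6% shared windows and a ratio of -7.90 ± 0.41.

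For some of the remaining classes, values are therefore also given for genes with under 5% shared windows. There were 5565 of these (81.4% of the tested genes), with a median ratio of 0.01. In the fit over all genes, 1422 of them (25.6%) were higher and 1356 (24.4%) lower. Genome sequence outside annotated genes was not searched.

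Among other translation genes, 21 further transcripts with a known or likely 5' terminal oligopyrimidine tract, the element that couples translation to growth signals, gave 6 higher and 11 lower with a median of -0.93. Only 3 of them had few shared windows, and those 3 had a median of 0.99. Of 45 initiation factors, 13 were higher and 18 lower, and of the 25 with few shared windows 9 and 8. The shares over all tested genes were 24.3% higher and 27.9% lower, and over those with few shared windows 25.6% and 24.4%. Eif3i, a subunit of the scaffold complex eIF3, had 163, 223 and 157 CPM in RNA and 699, 597 and 452 CPM in footprints (1.68 ± 0.22). Eef2, the translocase of elongation, had a ratio of -0.45 ± 0.19 (adjusted p = 0.0674). Aminoacyl-tRNA synthetases, which charge tRNA, gave 15 higher and 1 lower of 36, with a median of 0.42. The count of higher synthetases was 9 without pair 3, while higher calls over all genes fell from 1659 to 1236.

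Nuclear-encoded mitochondrial genes had high ratios. Respiratory chain subunits gave 51 higher and 6 lower of 68, with a median of 1.42 and values of 1.87, 1.11 and 1.33 in pairs 1, 2 and 3. Among the 35 with few shared windows, 33 were higher and 1 lower. Complex I, the NADH dehydrogenase, gave 29 higher and 0 lower of 34, and the mitochondrial ribosome 47 higher and 3 lower of 68 with a median of 1.15. Citrate cycle and glycolysis genes gave 13 higher and 8 lower of 35, and 12 higher and 0 lower among the 21 with few shared windows.

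Atp5e, the epsilon subunit of ATP synthase, had 71.9, 105 and 75 CPM in RNA and 906, 672 and 388 CPM in footprints. The groups did not overlap, and the log2 ratio was 2.90 ± 0.28 (adjusted p = 3.5e-05). Ndufb6 of complex I, 39.0% of whose exon bases overlap another gene, had 34.6, 42.1 and 36.5 CPM in RNA and 298, 202 and 289 CPM in footprints (2.79 ± 0.24). Uqcrq of complex III, Cox4i1 of complex IV and Mrpl28 of the mitochondrial large subunit had ratios of 2.56 ± 0.22, 2.28 ± 0.24 and 2.24 ± 0.21. Lower subunits included Uqcrb, with 91.9% shared windows, at -4.87 ± 0.54 and Cox7c, with 100%, at -5.33 ± 0.84. The 1 lower gene with few shared windows was Uqcc1, an assembly factor of complex III, at -1.04 ± 0.28, named after its value was seen.

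The 20S core of the proteasome, which degrades ubiquitin-tagged proteins, gave 12 higher and 2 lower of 17, and all 8 core genes with few shared windows were higher. Psmb4, a beta subunit, had 164, 215 and 167 CPM in RNA and 811, 788 and 698 CPM in footprints (2.08 ± 0.21), with no overlap. The immunoproteasome subunits Psmb8 and Psmb9 had ratios of 1.51 ± 0.23 and 2.07 ± 0.28. Psma3, an alpha subunit with 92.4% shared windows, had a ratio of -2.75 ± 0.30. Cap and assembly factors gave 13 higher and 5 lower of 29. Without pair 3, 8 of them were higher, while higher calls over all genes fell from 1659 to 1236.

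**Figure D4:**
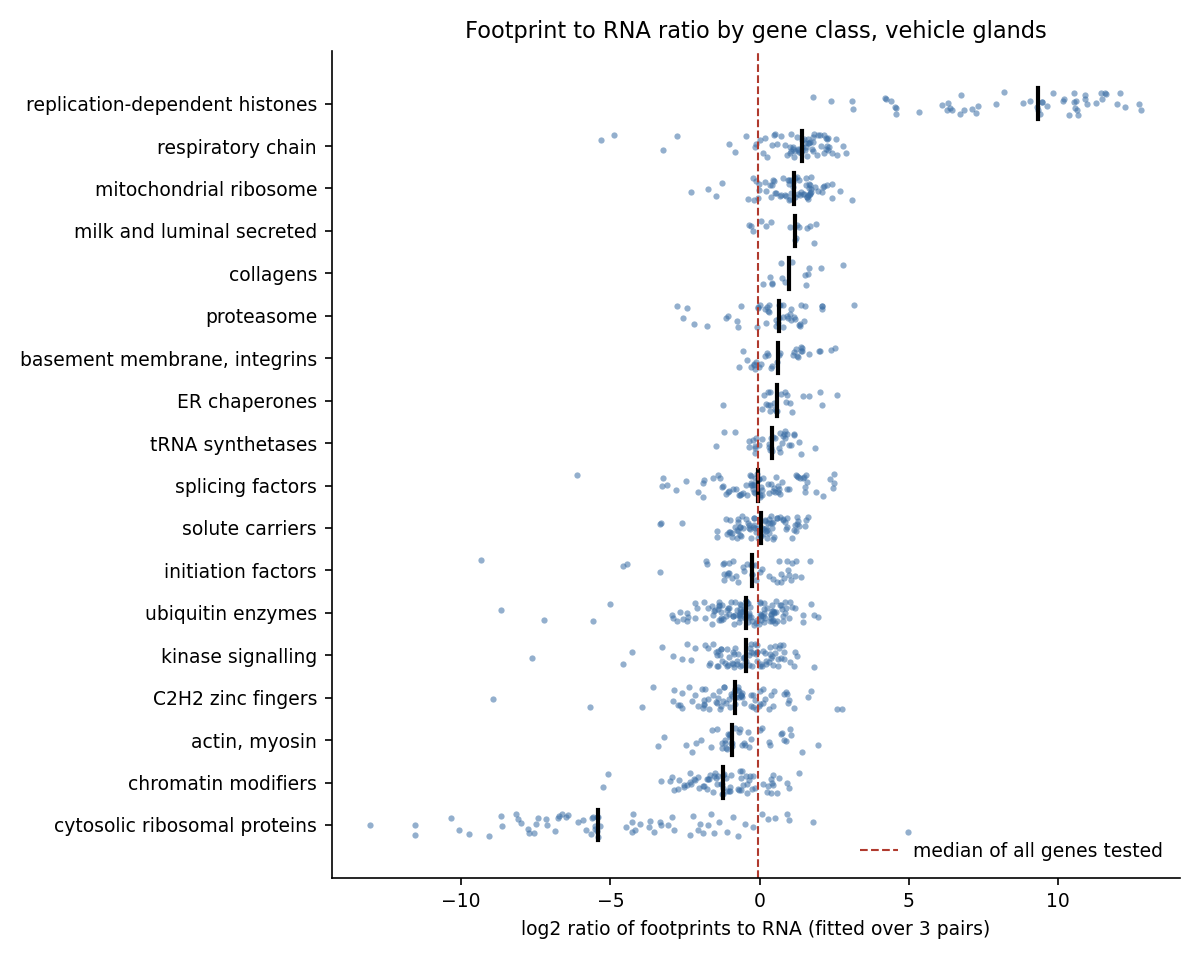
Fitted log2 footprint to RNA ratio of each tested gene with at least 1 footprint count (points) by gene class, with the class median as a black bar and the median of all tested genes as a dashed line. Histones (9.33) lie highest and ribosomal proteins (-5.41) lowest, with mitochondrial classes above 0 and chromatin regulators below.

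Several classes of secreted, matrix-related and ER proteins had no member called lower. Milk and other secreted proteins gave 9 higher and 0 lower of 15 (median 1.19), ER chaperones and folding enzymes 11 and 0 of 24 (0.56), and basement membrane and integrin genes 16 and 0 of 32 (0.63). Proteases and their inhibitors, many of them secreted, were mixed, with 10 higher and 6 lower of 24 (0.36), and 10 and 1 of the 16 with few shared windows. Apoe, the lipid carrier, had 551, 722 and 551 CPM in RNA and 2161, 1950.0 and 2607 CPM in footprints (1.88 ± 0.23). Lama1, a laminin chain of basement membrane, had 135, 87.0 and 79.4 CPM in RNA and 523, 501 and 670.3 CPM in footprints (2.52 ± 0.26). In both, footprints exceeded RNA in every library. Hspg2, which encodes perlecan, had a ratio of 2.39 ± 0.27. Csn3, kappa-casein, varied more between libraries than between assays, at 965, 2789 and 205 CPM in RNA and 4899, 2509.7 and 523 CPM in footprints (1.19 ± 0.40, adjusted p = 0.0291).

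Collagens gave 10 higher and 0 lower of 14, with a median of 0.97 and values of 0.47, 1.06 and 1.51 in pairs 1, 2 and 3. Col1a1, the alpha1 chain of type I collagen, had 1446, 945 and 1717 CPM in RNA and 6039, 7148 and 17991 CPM in footprints (2.79 ± 0.26, adjusted p = 3.01e-05). All footprint values lay above all RNA values, and library 3 was the highest in footprints. That library also had the highest fibroblast marker sum. Col1a1 and Col1a2 are themselves in that sum, whose part in the collagen ratios was not tested. Without pair 3, 6 collagens were higher, while higher calls over all genes fell from 1659 to 1236.

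Epithelial structural genes were mixed. Keratins gave 7 higher and 4 lower of 17, and 3 and 0 of the 7 with few shared windows. The luminal keratin gene Krt8 had 1293, 1238 and 865 CPM in RNA and 404, 360.2 and 366 CPM in footprints, a log2 ratio of -1.57 ± 0.21 with 45.4% shared windows. Its partner Krt18 had a ratio of 0.66 ± 0.22, with 16.5%. The basal pair stood likewise, with Krt14 at -1.28 ± 0.20 (37.5%) and Krt5 at 0.78 ± 0.19 (18.5%). Cldn3, a tight junction claudin with 1.26%, had 333, 284 and 245 CPM in RNA and 2071, 1160.1 and 1347 CPM in footprints (2.37 ± 0.22). The luminal adhesion protein Epcam had a ratio of 0.60 ± 0.21 (adjusted p = 0.0378). Junction genes as a class gave 7 higher and 12 lower of 31, and actin and myosin genes 8 and 24 of 43, with a median of -0.91. For comparison with these classes and the keratins, 24.3% of all tested genes were higher and 27.9% lower. The 8 higher actin and myosin genes were 4 without pair 2, while higher calls over all genes fell from 1659 to 1370. Myh14, a nonmuscle myosin heavy chain, had 643, 439 and 579 CPM in RNA and 22.3, 81.2 and 66.1 CPM in footprints (-3.39 ± 0.40).

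Chromatin regulators had low ratios: 45 of 72 were lower and 4 higher, with a median of -1.22 and pair values of -1.38, -0.91 and -1.16. The few with higher ratios numbered 2 without pair 2, while higher calls over all genes fell from 1659 to 1370. Among the 63 with few shared windows, 39 were lower and 3 higher. Chd2, a chromatin remodeller, had 1123, 752 and 1099.7 CPM in RNA and 21.2, 25.6 and 31.7 CPM in footprints. RNA lay above footprints in every library, and the log2 ratio was -5.23 ± 0.27 (adjusted p = 5.38e-07). None of its windows is shared, but 19.3% of its exon bases overlap another annotated gene. The remodeller Chd1 and the deacetylase Hdac5 had ratios of -2.52 ± 0.22 and -2.88 ± 0.25.

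Med13, a subunit of the Mediator kinase module that regulates RNA polymerase II, had 761, 459 and 778 CPM in RNA and 41.8, 26.7 and 17.0 CPM in footprints (-4.60 ± 0.33). Zinc finger genes gave 9 higher and 41 lower of 77 (median -0.83), ubiquitin ligases and deubiquitinases 14 and 54 of 119 (-0.45), and kinases of signalling pathways 10 and 37 of 83 (-0.45). Of those with few shared windows, 9 of 63 zinc finger genes were higher and 28 lower. In the ubiquitin class 12 and 41 of 101 were, and among kinases 8 and 30 of 72. The deubiquitinase Usp7 and the ligase Ube3b had ratios of -2.90 ± 0.28 and -2.93 ± 0.26. Tsc1, an inhibitor of mTORC1 signalling, had 122, 94.4 and 117 CPM in RNA and 21.2, 10.6 and 14.1 CPM in footprints (-2.90 ± 0.27), with no overlap. Higher calls were fewer with 1 pair left out: without pair 3 there were 9 in the ubiquitin class and 6 among kinases, and without pair 2 there were 3 among kinases, against 1236 and 1370 over all genes.

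Transcription factors were not uniformly low. Cebpb, a leucine zipper factor with a regulatory upstream open reading frame, had 231, 241 and 259 CPM in RNA and 3932, 3049 and 3162 CPM in footprints. Footprints exceeded RNA in all 3 pairs, and the log2 ratio was 3.79 ± 0.22 (adjusted p = 1.24e-06). Exons of another annotated gene overlap 20.7% of its exon bases. Cdkn1b, the cell cycle inhibitor p27, had a ratio of 1.5 ± 0.2. The iron storage chains Fth1 and Ftl1, classic cases of translational control by iron, had ratios of 1.02 ± 0.22 and -2.21 ± 0.41, with 26.1% and 89.3% shared windows.

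In the Wnt pathway 6 of 17 genes were higher and 5 lower, beside 24.3% and 27.9% over all tested genes. Wnt1, the ligand encoded by a transgene, had 29.9, 43.2 and 10.8 CPM in RNA and 196, 178 and 47.2 CPM in footprints (2.29 ± 0.24). Pair 3 was the lowest in both assays, and the assays did not overlap. Tcf7l2, a nuclear effector, had a ratio of 2.07 ± 0.24, whereas Dvl1, which relays the receptor signal, and Apc, which holds beta-catenin in check, had ratios of -2.08 ± 0.21 and -2.11 ± 0.37. Fgfr1 was at 332, 352 and 260.3 CPM in RNA and 323, 335 and 201 CPM in footprints, which overlapped (-0.16 ± 0.20, adjusted p = 0.517). Counts on Wnt1 and Fgfr1 can hold transgene reads.

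Smaller classes of the gland's other functions were also described. Lysosomal and proton pump genes gave 15 higher and 2 lower of 34 (median 0.42), and Psap, the precursor of lysosomal saposins, had 854, 852 and 742 CPM in RNA and 3053, 2621 and 3737 CPM in footprints (1.93 ± 0.22). S100 and annexin genes, which bind calcium, gave 9 higher and 1 lower of 17 (1.06). Selenoproteins, which read a stop codon as selenocysteine, gave 7 higher and 2 lower of 13. Without pair 3, 4 selenoproteins were higher, while higher calls over all genes fell from 1659 to 1236. Gpx1, a glutathione peroxidase of that class, had a ratio of 1.63 ± 0.22. B2m, the light chain of MHC class I, had 557, 883 and 572 CPM in RNA and 4741, 2793 and 1986 CPM in footprints (2.18 ± 0.29).

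Other classes split in both directions. Splicing factors gave 23 higher and 20 lower of 78, with a median of -0.05, and 19 and 4 of the 41 with few shared windows. Sf3b5, a subunit of the U2 particle, had 24.3, 32.8 and 23.1 CPM in RNA and 172, 153 and 127 CPM in footprints (2.50 ± 0.23), and the RNA-binding protein Hnrnpk, with 87.3% shared windows, had a ratio of -6.11 ± 0.41. Ribosome biogenesis genes gave 12 higher and 10 lower of 67, and interferon-response genes 8 and 10 of 38. Solute carriers gave 15 higher and 20 lower of 79. Over all tested genes, 24.3% were higher and 27.9% lower. The lower solute carriers numbered 13 without pair 2 and 10 without pair 3, against 1723 and 1572 lower calls over all genes.

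Markers of cells outside the epithelium were tested by the same fit. The adipocyte fatty acid carrier Fabp4 had 176, 155 and 301 CPM in RNA and 1033, 739.9 and 1785 CPM in footprints, a log2 ratio of 2.46 ± 0.21. Footprints exceeded RNA in every library, and pair 3 was the highest in both assays. The endothelial adhesion protein Pecam1 overlapped between assays, with 126, 144 and 184 CPM in RNA and 125, 139 and 165 CPM in footprints (-0.08 ± 0.20, adjusted p = 0.767). Pecam1 had the lowest ratio of the 4 endothelial markers tested, of which 2 were higher and 0 lower, with a median of 0.54.

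The ratio went down as the coding sequence got longer. The genes with few shared windows were split by coding length into 5 bins of equal size, and the median was 0.77 for coding sequences of 135 to 882 bases, then 0.37, 0.02 and -0.30, and -0.88 for those of 2949 to 100404 bases. In the shortest bin 52.1% were higher and 4.49% lower, and in the longest bin 6.85% and 54.6%. Each pair gave the same order, with the widest span in pair 1, from 0.97 to -1.12. Spearman's rho across these 5565 genes, which share libraries, was -0.52 with coding length, -0.57 with transcript length, -0.32 with 3' UTR length and 0.22 with GC content of the coding sequence. The ratio also went down with RNA level, from a median of 0.68 in the lowest of 5 bins to -0.69 in the highest, but RNA is the denominator of the ratio.

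**Figure D5:**
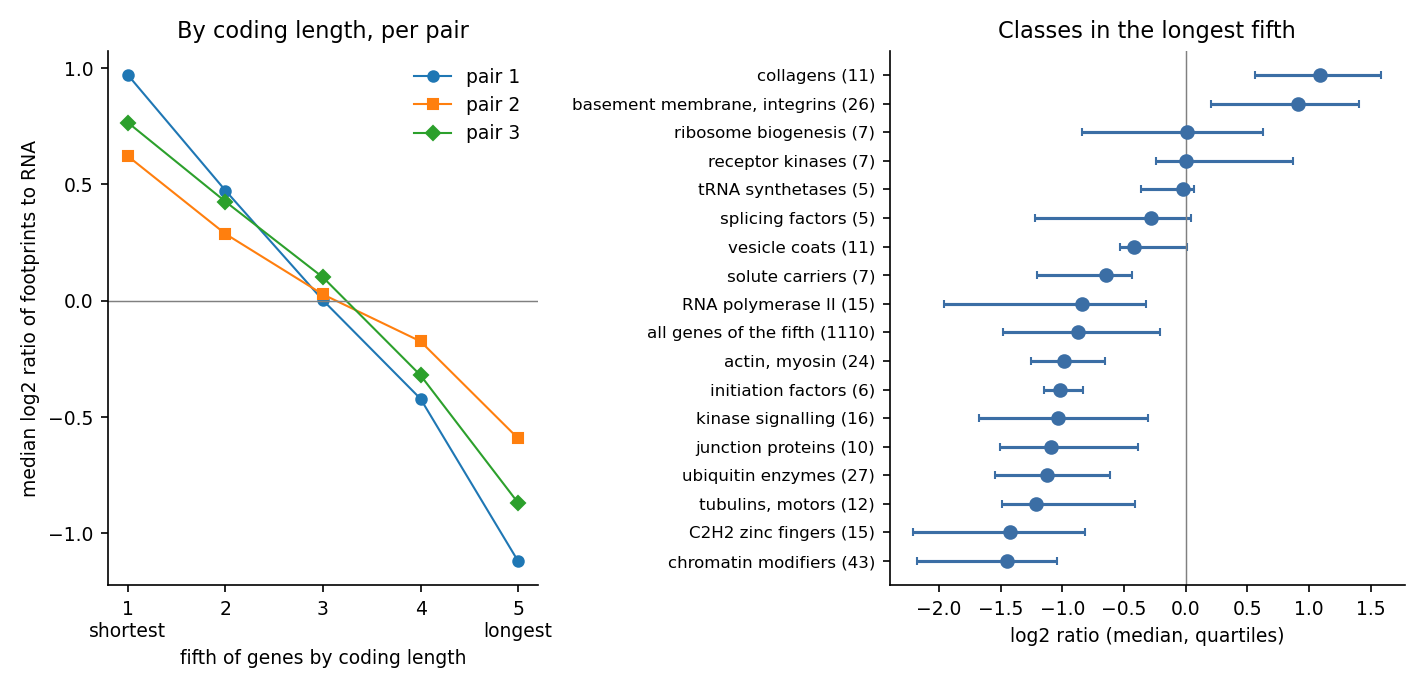
Left, median log2 footprint to RNA ratio in each of the 3 pairs by bin of coding length in genes with few shared windows. Right, median and quartiles of gene classes in the longest bin with the number of genes in brackets, where collagens (1.09) and basement membrane genes (0.91) lie above the median of all its genes (-0.88) and chromatin genes (-1.45) below.

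Class medians were set beside those of all genes in the same length bin. In the longest bin, where the median over 1110 genes was -0.88, 11 collagens had a median of 1.09 with 8 higher and 0 lower, and 26 basement membrane and integrin genes one of 0.91 with 15 and 0. In that bin, 43 chromatin genes had a median of -1.45, with 34 lower and 0 higher. In the shortest bin, where the median over 1114 genes was 0.77, all 15 complex I genes were higher with a median of 1.78. The 31 mitochondrial ribosome genes there had a median of 1.38, with 24 higher and 0 lower, and 10 of 12 splicing genes were higher with a median of 1.44. Whether a class differs from others of its length was not tested.

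Ranked after their values were seen, the highest ratios among genes with few shared windows included several whose footprints were far higher in library 3. Mroh6 had 2.66, 2.23 and 1.97 CPM in RNA and 253, 390.2 and 4921 CPM in footprints (8.25 ± 0.90). Cobl, an actin nucleator, had 220.0, 372 and 3085 CPM in footprints, and Cyba, a subunit of the NADPH oxidase, 131, 492 and 2896 CPM. Between the lowest and the highest footprint library these 3 genes spanned 19.4-fold, 14-fold and 22-fold, against a median of 1.57-fold over 5328 genes, while their RNA differed by 1.22-fold to 1.38-fold. Without pair 3 their ratios were 7.01 for Mroh6, 3.14 for Cobl and 2.73 for Cyba, against 8.25, 4.24 and 3.82 with it. Dpysl2, a regulator of microtubules in axons, was even across libraries, at 4.80, 5.94 and 7.17 CPM in RNA and 75.2, 77.8 and 87.9 CPM in footprints (3.76 ± 0.30). Mroh6 and Dpysl2 had RNA means of 2.29 and 5.97 CPM and were tested only because their footprints were high, so their rank supports nothing on its own.

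At the low end, 10 tested genes had no footprint count in any library. They were tested only because their RNA was high, so their rank supports nothing on its own. Of these 10, 8 had at least 84.7% shared windows. The other two were Kif5a, a kinesin motor, and Raver1, an RNA-binding protein. Kif5a had 33.9, 25.7 and 32.2 CPM in RNA, so its footprints were at least 74.9-fold lower. For Raver1 the bound was 92.5-fold, and 99.7% of its exon bases overlap another annotated gene. Stx16, a Golgi syntaxin with 0% shared windows, had 3 footprint counts, and RNA was 168-fold above footprints (95% Poisson interval 57.6 to 816, counting error only). Stx16 too was tested only through its RNA. Homer1, a synaptic scaffold, had 513, 253 and 482 CPM in RNA and 3.34, 25 and 45 CPM in footprints (-4.20 ± 0.56).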

How the data were processed

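The authors deposited raw counts per gene symbol, not normalized. The submitters' processing notes name build mm10 and the tools HTSeq, Bowtie2, STAR, cutadapt and bcl2fastq 1.8.3. Settings, strand rule, treatment of multimapping reads and counted region were not given in the sources used here. Of 7318 symbols, 7289 matched GENCODE vM21 (GRCm38, the C57BL/6J reference, while the mice were FVB/N), 155 through a synonym. Gene classes, members and lists were chosen with earlier results of these data known.

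Genes with a mean of at least 10 CPM over both assays were tested by quasi-likelihood in edgeR 4.0.16 (R 4.3.3), with TMM scaling, assay and replicate number as terms, and 2-sided Benjamini-Hochberg adjusted p-values. All adjusted p-values come from this fit, SE is from its F statistic and SD is over 3 libraries. Classes were described by counts and medians. Named were the 10 highest and 10 lowest ratios at 30 CPM or more in the higher assay, up to 6 members per class by p, the 5 largest footprint levels and textbook cases. Other genes, cell type markers included, were named after their values were seen. Some genes are not reported here. The procedure was tested on simulated data. Shared windows are 28-base stretches of a coding sequence that also occur in another annotated gene, pseudogenes included. Alternatives used DESeq2 1.42.0 and limma 3.58.1 on paired log2 ratios with a pseudocount of 0.5 CPM, other scalings and filters, no replicate block, and each pair left out.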

Additional observations from a re-analysis of the deposited data

How the results depend on the processing

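Under other scalings, filters and tools, higher calls numbered 1475 to 1983 and lower calls 1591 to 2057, against 1659 and 1904. Upper-quartile scaling gave 1983 and 1591 and moved the median of all genes by 0.18, and plain totals gave 1481 and 2057. Leaving out a pair gave 1236 to 1537 higher and 1572 to 1819 lower. Without the replicate block there were 1739 higher and 1836 lower, of which 1624 and 1783 were shared. Deviations of same-numbered RNA and footprint libraries correlated at 0.03, 0.08 and 0.35, so not every library correlated best with its own number. Relative to all genes, the median of the mitochondrial ribosome was 1.21, and 1.56 when only means from 30 CPM up entered, and that of replication-dependent histones was 9.39, and 8.36 with limma. Leaving out a pair gave 1.14 to 1.36 for the mitochondrial ribosome, 9.26 to 9.39 for histones, 1.22 to 1.59 for respiratory chain subunits, -1.16 to -1.11 for chromatin regulators and -5.49 to -4.90 for ribosomal proteins. With only few-shared genes, a choice made after seeing the data, the sign of the other 5' terminal oligopyrimidine genes reversed (0.98, 3 genes). That of a class of small abundant proteins reversed too (1.72, 6 genes). Solute carriers stood at 0.11, and leaving out a pair gave -0.0568 to 0.12. The causes were not tested. Footprint depth limits low genes: the floor of 3 counts is 0.799 to 1.67 CPM in footprints.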
